A study of Homo sapiens with 4 samples.

Results

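The AP-1 and EGR transcription factors were measured in MV4-11, a human cell line from an acute myeloid leukaemia with a rearranged MLL gene and an activated FLT3 receptor kinase, and in MV4-11R, its drug-resistant derivative. The 10 genes were chosen by name: the FOS family (FOS, FOSB, FOSL1, FOSL2), the JUN family (JUN, JUNB, JUND), BATF, and the EGR genes EGR1 and EGR2. Of these, 9 were among the 18417 genes measured here, and EGR2 was not analysed here. Each gene was read from its brightest probe set over the 4 arrays, and each of the 9 had 1 probe set. RNA was measured on 2 arrays of MV4-11, labelled as drug sensitive with high EZH2 expression, and 2 arrays of MV4-11R, labelled as resistant with EZH2 expression low. MV4-11R came from the same parental line, kept for 3 months in rising amounts of PKC412. This drug, also called midostaurin, blocks FLT3 and several more kinases. It is thus 1 selected derivative, and a change that arose in its selection cannot be told apart from a response to the drug. The labels do not say whether PKC412 was in the medium when RNA was taken.

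AP-1 is a dimer of proteins joined by a leucine zipper. JUN proteins can pair with each other, with FOS proteins, or with BATF and ATF proteins, while FOS proteins need a partner such as JUN to bind DNA. EGR proteins bind GC-rich sites through zinc fingers. Most genes of both families are immediate early genes: growth factors, cytokines and stress switch them on within minutes through the ERK, JNK and p38 kinases, often by way of the factor SRF. In blood cells they take part in monocyte and macrophage differentiation and in inflammatory responses, and activated FLT3 feeds into the ERK pathway.

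The promoters are shown first, so that the elements of genes that moved together can be compared. EGR1 is added, although neither it nor FOS, whose window is not shown, passed the threshold given below. The windows cover the 250 bases before the annotated start in GRCh38.p14 (RefSeq) of the genes that rose in MV4-11R and had an entry, FOSB, JUN, JUNB and JUND, and of EGR1. They are written 5′ to 3′ on the gene's strand, with motif matches in capitals. The capitals mark a TATA box in FOSB and JUNB, a JUN-type AP-1 site in JUN, a cAMP response element in JUND, and in EGR1 an EGR site followed by 2 CArG boxes, the sites of SRF.
FOSB (chr19:45467746-45467995, plus strand): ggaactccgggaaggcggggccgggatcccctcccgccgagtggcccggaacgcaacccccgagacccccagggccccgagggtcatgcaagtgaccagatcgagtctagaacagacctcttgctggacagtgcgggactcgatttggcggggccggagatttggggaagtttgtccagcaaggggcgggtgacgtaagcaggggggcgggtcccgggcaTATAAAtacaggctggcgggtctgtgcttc
JUN (chr1:58784048-58784297, minus strand): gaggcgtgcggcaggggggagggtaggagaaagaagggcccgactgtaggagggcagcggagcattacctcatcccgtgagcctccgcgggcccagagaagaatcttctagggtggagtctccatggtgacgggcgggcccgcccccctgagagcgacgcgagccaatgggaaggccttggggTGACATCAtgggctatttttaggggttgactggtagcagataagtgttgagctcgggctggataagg
JUNB (chr19:12791236-12791485, plus strand): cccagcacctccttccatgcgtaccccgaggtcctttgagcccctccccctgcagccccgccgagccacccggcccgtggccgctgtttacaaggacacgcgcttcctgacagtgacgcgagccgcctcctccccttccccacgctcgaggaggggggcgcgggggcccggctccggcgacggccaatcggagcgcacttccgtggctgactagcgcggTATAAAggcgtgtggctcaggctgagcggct
JUND (chr19:18281623-18281872, minus strand): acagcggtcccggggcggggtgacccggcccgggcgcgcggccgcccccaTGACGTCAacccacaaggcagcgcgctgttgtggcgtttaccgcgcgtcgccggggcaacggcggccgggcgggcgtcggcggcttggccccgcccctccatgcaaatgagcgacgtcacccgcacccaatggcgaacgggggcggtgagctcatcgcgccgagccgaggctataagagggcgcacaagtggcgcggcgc
EGR1 (chr5:138465229-138465478, plus strand): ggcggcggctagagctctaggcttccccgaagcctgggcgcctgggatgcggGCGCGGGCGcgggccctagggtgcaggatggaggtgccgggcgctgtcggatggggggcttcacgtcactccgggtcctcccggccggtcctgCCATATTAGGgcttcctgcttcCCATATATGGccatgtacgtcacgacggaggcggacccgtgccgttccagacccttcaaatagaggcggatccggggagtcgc

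The motifs were searched on both strands. The AP-1 site was searched as TGAGTCA, whose reverse complement is the other common form of the site. The cAMP response element was searched as TGACGTCA and the AP-1 variant described in the JUN promoter as TGACATCA. The EGR site was searched as GCGNGGGCG and the CArG box by its consensus. The letters searched for the TATA box were TATAAA. No match overlapped a match of another motif. The JUN site lay 67 to 60 bases before the start, and 2.37% of 35116 promoter windows of that length held one. The JUND element lay 200 to 193 bases before the start, with a match in 1.65% of windows. EGR1 had CArG boxes from 105 to 96 and from 83 to 74 bases before the start, found in 1.16% of windows, and an EGR site from 198 to 190, found in 8.41%. FOSB (30 to 25 bases), JUNB (31 to 26) and FOS (33 to 28) had a TATA box, which 10.7% of windows held. The AP-1 site had no match in the 8 windows of the measured genes, against 4.2% of all windows, and the windows of FOSL2 and BATF held none of these motifs. Of the 5 genes shown, FOSB and JUNB thus shared a motif by these letters, also held by FOS, and the others each held different ones. Variants beyond these letters and sites farther upstream were not searched, so shared elements of those kinds would be missed. GC content ran from 43.2% (BATF) to 74.8% (JUND), against a median of 58% over all windows.

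In MV4-11R, 5 of the 9 measured genes rose. The other 4 did not pass, and 0 fell (0 were lower, and 7 higher, at an unadjusted p under 0.05 by limma). The words rose and fell stand for an adjusted p under 0.05 in limma's 2-sided test (Benjamini-Hochberg over all genes). Over all genes 7.92% rose and 7.13% fell, or 15.1% in either direction. At an unadjusted p under 0.05 by limma, 2872 of all 18417 genes were higher and 2398 lower. FOSB, JUND, JUN, FOSL1 and JUNB rose by 0.69 to 1.39 log2 units. The median difference (MV4-11R minus MV4-11) over the 9 genes was 0.84, against 0.01 over all genes. Both MV4-11R arrays lay above both MV4-11 arrays for 7 of the 9, as they did for 29.6% of all genes. In bulk RNA, a change in every cell and a change in a share of the cells cannot be told apart.

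**Figure D1:**
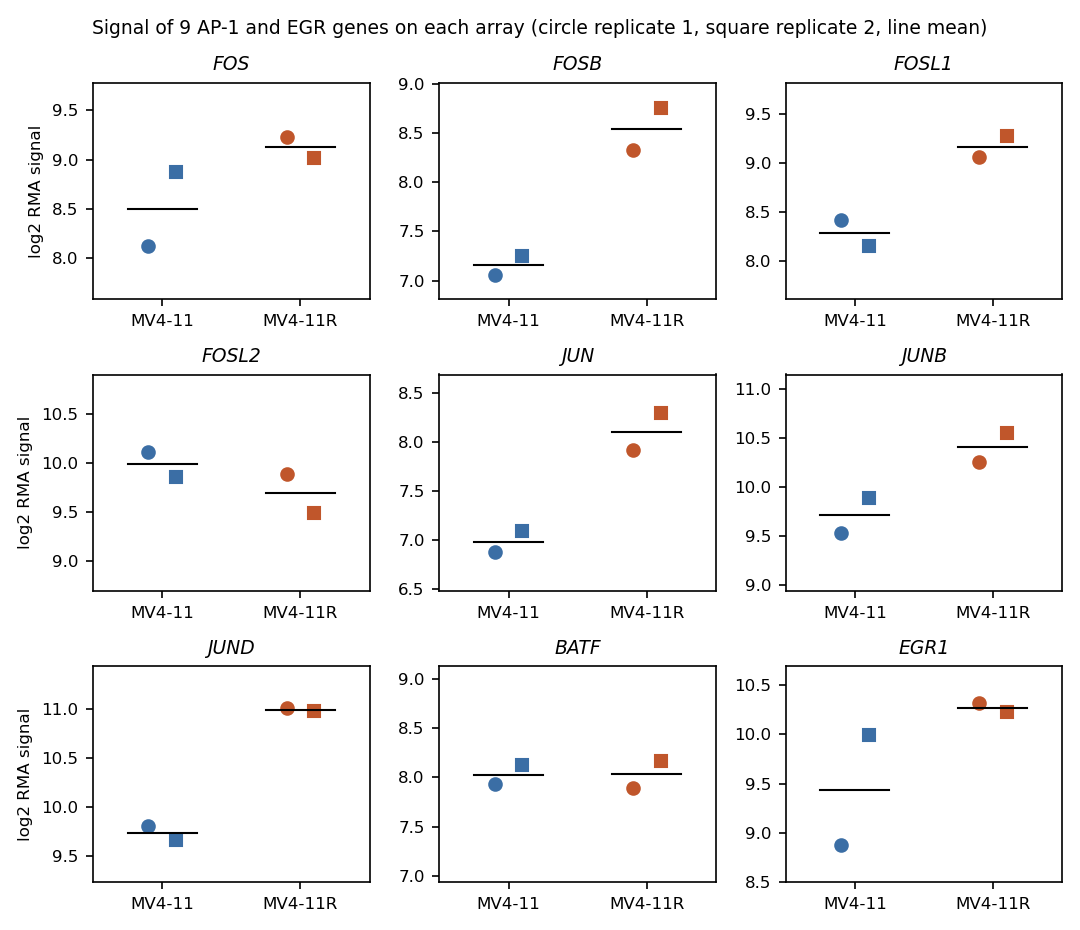
The log2 RMA signal of the 9 measured genes is plotted for each array, with MV4-11 in blue, MV4-11R in orange, replicate 1 as a circle, replicate 2 as a square and the group mean as a line; every panel spans the same number of log2 units. The groups are apart for 7 genes and overlap for FOSL2 and BATF, and the MV4-11 arrays lie far from each other for FOS and EGR1.

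Among the JUN proteins, which can form AP-1 with or without a FOS partner, JUND had the smallest spread. JUND, often described as restraining growth, read 9.80 and 9.66 in MV4-11 and 11.01 and 10.97 in MV4-11R. The arrays of each line lay close together and the groups were well apart. JUND rose 2.39-fold (log2 difference 1.26, SE 0.11, adjusted p = 0.00239 by limma), and 1.17% of all genes had a larger rise. JUN, the founding member and a main target of the JNK kinases, read 6.88 and 7.10 in MV4-11 and 7.92 and 8.29 in MV4-11R. Again both MV4-11R arrays were higher, by more than the spread within either line. JUN rose 2.17-fold (1.12, SE 0.16, adjusted p = 0.00991 by limma). JUNB, a JUN protein with weaker transactivation that can oppose JUN, read 9.53 and 9.89 in MV4-11 and 10.26 and 10.55 in MV4-11R. Its groups did not overlap, but the distance between them was about that between the arrays of a line. JUNB rose 1.62-fold (0.69, SE 0.17, adjusted p = 0.0450 by limma). Leaving out MV4-11 replicate 1 gave 0.51 (adjusted p = 0.159) and leaving out MV4-11R replicate 2 gave 0.54 (adjusted p = 0.129), neither past the threshold, whereas those of JUND and JUN held without any 1 of the 4 arrays.

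FOSB, JUND and JUNB lie on chromosome 19, where 15.9% of 1308 genes rose and the median difference was 0.14. Neighbours here are the nearest 30 genes on each side whose mean level was above the median of all genes. They had a median difference of 0.25 for FOSB, 0.24 for JUND and 0.30 for JUNB. With that shift subtracted, FOSB (1.14, adjusted p = 0.0116) and JUND (1.01, adjusted p = 0.00521) still rose, and JUNB did not pass (0.39, adjusted p = 0.184). Neighbours of JUN on chromosome 1 had a median of 0.05, and those of FOSL1 on chromosome 11 a median of -0.06. For JUN (1.07, adjusted p = 0.0122) and FOSL1 (0.94, adjusted p = 0.0126) the call thus held with the shift subtracted.

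**Figure D2:**
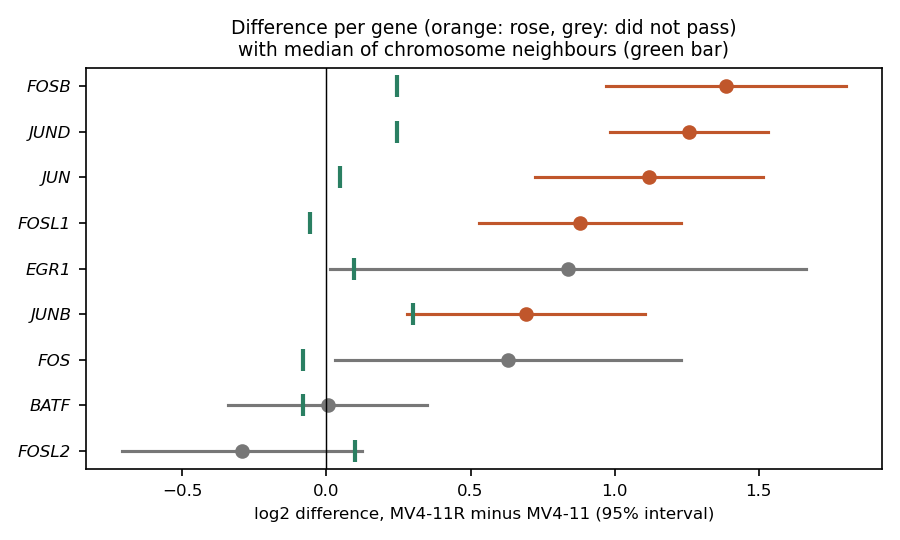
The log2 difference (MV4-11R minus MV4-11) of each gene is plotted as a point with limma's 95% interval, orange for genes that rose and grey for those that did not pass, and the green bar is the median difference of the gene's chromosome neighbours. FOSB, JUND, JUN and FOSL1 have intervals above the green bar, and the lower end for JUNB, 0.28, reaches its neighbours' median of 0.30.

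The FOS proteins split. FOSB, an immediate early member with a full transactivation domain, read 7.06 and 7.25 in MV4-11 and 8.33 and 8.76 in MV4-11R. It had the largest difference of the 9 genes, a rise of 2.61-fold (1.39, SE 0.17, adjusted p = 0.00596 by limma), and 0.939% of all genes had a larger rise. FOSL1 (FRA-1), which lacks such a domain and is induced later than FOS, read 8.42 and 8.15 in MV4-11 and 9.06 and 9.28 in MV4-11R. The MV4-11R arrays were the higher ones, and FOSL1 rose 1.84-fold (0.88, SE 0.14, adjusted p = 0.0136 by limma). Both calls held without any 1 of the 4 arrays. FOSL2 (FRA-2), the other FOS protein without that domain, read 10.10 and 9.86 in MV4-11 and 9.89 and 9.49 in MV4-11R. These values overlap, and the difference of -0.29 (95% interval -0.71 to 0.12, adjusted p = 0.337 by limma) did not pass. The interval of FOSL2 lies below those of FOSB (0.97 to 1.80) and FOSL1 (0.53 to 1.23).

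BATF, a leucine zipper protein without a transactivation domain that pairs with JUN proteins, read 7.93 and 8.13 in MV4-11 and 7.90 and 8.17 in MV4-11R. The MV4-11R arrays lay on either side of the MV4-11 arrays. Its mean was 8.03 in each line, and the 95% interval of the difference ran from -0.34 to 0.35 (adjusted p = 0.993 by limma). FOS and BATF lie close together on chromosome 14, where the median difference around both was -0.08.

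FOS and EGR1, the genes most often used as readouts of an immediate early response, were higher in MV4-11R but did not pass. FOS read 8.12 and 8.87 in MV4-11 and 9.23 and 9.02 in MV4-11R, a difference of 0.63 (SE 0.25, 95% interval 0.03 to 1.23, adjusted p = 0.156 by limma). EGR1, a zinc finger factor of monocyte differentiation, read 8.88 and 9.99 in MV4-11 and 10.32 and 10.23 in MV4-11R, a difference of 0.84 (SE 0.34, 95% interval 0.01 to 1.66, adjusted p = 0.168 by limma). In both genes MV4-11 replicate 1 was the low array, and MV4-11 replicate 2 came near the MV4-11R arrays. The gap between the MV4-11 arrays was 0.75 for FOS and 1.12 for EGR1, and 99.1% and 99.8% of all genes had a smaller gap there. Without MV4-11 replicate 1 the difference was 0.26 (adjusted p = 0.487) for FOS and 0.28 (adjusted p = 0.394) for EGR1. Without MV4-11 replicate 2 both rose, FOS by 1.004 (adjusted p = 0.0193) and EGR1 by 1.40 (adjusted p = 0.00556), so the size for these genes rests on which MV4-11 array is used. The other members had gaps between the MV4-11 arrays of at most 0.36, found in JUNB.

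**Figure D3:**
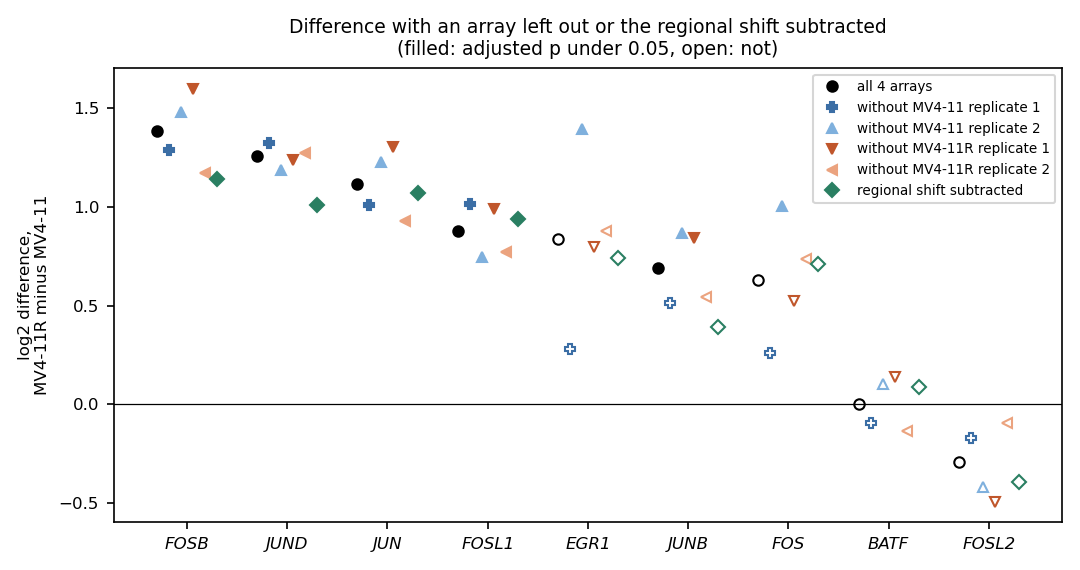
The log2 difference of each gene is plotted with all 4 arrays, with each array left out, and with the regional shift subtracted, filled where adjusted p was under 0.05. FOSB, JUND, JUN and FOSL1 stay filled throughout, while EGR1 moves between 0.28 and 1.40 and FOS between 0.26 and 1.004 with the MV4-11 array left out.

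The other genes of these pathways were taken from fixed lists. Of 14 measured leucine zipper partners of AP-1, 1 rose, 1 fell and 12 did not pass, with a median of 0.10. These are 7.14% in each direction, near the shares of all genes that rose (7.92%) and fell (7.13%). The same shares of all genes are the background for the list counts below. BATF3, a relative of BATF needed for some dendritic cells, rose 1.52-fold (7.42 to 8.03, adjusted p = 0.0374 by limma). ATF7, which pairs with JUN and FOS proteins at cAMP response elements, fell 1.88-fold (9.98 to 9.07, adjusted p = 0.0136 by limma). BATF3 missed the threshold in 3 of the 4 fits with an array left out, with adjusted p = 0.125 for MV4-11 replicate 1, 0.0970 for MV4-11 replicate 2 and 0.120 for MV4-11R replicate 1, and passed with MV4-11R replicate 2 left out (0.0222).

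Of 5 EGR relatives and corepressors 1 rose and 4 did not pass, with a median of 0.21. WT1, a zinc finger factor that binds sites like those of EGR1 and is often highly expressed in acute leukaemia, read 7.86 and 7.75 in MV4-11 and 9.37 and 8.94 in MV4-11R. It rose 2.56-fold (1.36, SE 0.16, adjusted p = 0.00568 by limma), and held without any 1 array. EGR3 had a difference of 0.43 (adjusted p = 0.114). The corepressor NAB2, itself induced by EGR1, had one of -0.02 (95% interval -0.28 to 0.24). Both were picked with their values known.

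The next list holds SRF, its cofactors and CREB1, which act on the promoters of these genes, and 6 of its genes were measured. Of these 2 fell, 0 rose (0 also at an unadjusted p under 0.05 by limma) and 4 did not pass, with a median of -0.28. Those that did not pass were SRF (-0.23), ELK1 (0.04), ELK3 (-0.34) and ELK4 (0.23), so MRTFB was the only fall apart from CREB1. MRTFB, an actin-regulated cofactor of SRF, read 7.38 on each MV4-11 array and 6.06 and 5.72 in MV4-11R, and fell 2.80-fold (-1.49, SE 0.14, adjusted p = 0.00303 by limma). Its MV4-11R arrays read under 6.26, the 95th percentile of 341 olfactory receptor genes, used as a guide to background, so its fold is not exact. CREB1, which binds cAMP response elements, fell 1.44-fold (11.10 to 10.57, adjusted p = 0.0264 by limma), a call lost without any 1 of the 4 arrays (adjusted p from 0.0711 to 0.117).

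Among 13 measured kinases upstream of AP-1 and EGR genes, 3 fell, 1 rose and 9 did not pass, with a median of -0.26. MAPK3 (ERK1) fell 1.82-fold (11.60 to 10.73, adjusted p = 0.00939 by limma), and MAP2K6, an activator of p38, fell 1.70-fold (7.64 to 6.87, adjusted p = 0.0494). RPS6KA1, a kinase that ERK activates, rose 1.54-fold (10.51 to 11.13, adjusted p = 0.0260). The remaining fall was of RPS6KA5 at -0.63, chosen after its value was seen. MAP2K6 missed the threshold with MV4-11 replicate 2 (0.151) or MV4-11R replicate 1 (0.159) left out, with array centring (0.0518), and with the regional shift subtracted (0.0554). RPS6KA5 missed it with MV4-11 replicate 1 (0.0839) or MV4-11R replicate 1 (0.0582) left out. RPS6KA1 missed it with MV4-11 replicate 1 (0.101), replicate 2 (0.0697) or MV4-11R replicate 2 (0.0754) left out. These are RNA levels, and kinase activity was not analysed here.

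Phosphatases that switch the same kinases off, several of them induced by ERK, changed in both directions. Of 9 MAPK phosphatases 4 rose, 2 fell and 3 did not pass, with a median of 0.49. DUSP16, which acts on JNK and p38, rose 2.40-fold (7.18 to 8.44, adjusted p = 0.0136 by limma) and DUSP6, which acts on ERK, 2.28-fold (8.85 to 10.04, adjusted p = 0.00742). DUSP4 fell 2.01-fold (8.35 to 7.35, adjusted p = 0.0122) and DUSP10 1.502-fold (9.93 to 9.34, adjusted p = 0.0268). DUSP10 missed the threshold with MV4-11 replicate 1 (0.107), replicate 2 (0.0764) or MV4-11R replicate 1 (0.0985) left out.

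Other immediate early genes changed in part. Of 19 measured, 4 rose, 1 fell and 14 did not pass, with a median of 0.13. DUSP1, an immediate early phosphatase, read 7.64 and 7.69 in MV4-11 and 8.71 and 8.78 in MV4-11R, and rose 2.11-fold (1.08, SE 0.11, adjusted p = 0.00316 by limma). IER3, a stress-induced survival gene, rose 2.10-fold (7.73 to 8.79, adjusted p = 0.00799). Both held without any 1 array. IER2, on chromosome 19, also rose (0.73, adjusted p = 0.0257 by limma). With the regional shift subtracted it did not pass (0.40, adjusted p = 0.128), and with an array left out it ran from 0.55 to 0.90. SGK1, a kinase induced by serum, fell (6.37 to 5.89, adjusted p = 0.0416), a call lost without any 1 of the 4 arrays (adjusted p from 0.0687 to 0.184), and its MV4-11R arrays read under the background guide, so its size is not exact. NR4A1, induced by the same signals as EGR1, had a difference of 0.13 (95% interval -0.14 to 0.40), and ATF3, a stress-induced AP-1 partner, had one of 0.42 (adjusted p = 0.268), both chosen after their values were seen. NR4A2, a relative of NR4A1, rose (0.71, adjusted p = 0.0226 by limma) and ran from 0.59 to 0.82 with an array left out. Another relative, NR4A3, did not pass (0.38, adjusted p = 0.0898 by limma). In MV4-11, replicate 2 read above replicate 1 for 13 of the 19, against 10043 of all 18417 genes. The median gap in MV4-11, replicate 2 minus replicate 1, was 0.12 for the list and 0.02 over all genes. In MV4-11R, replicate 2 read above replicate 1 for 12 of the 19, against 8139 of all genes. The median gaps there were 0.08 and -0.03.

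**Figure D4:**
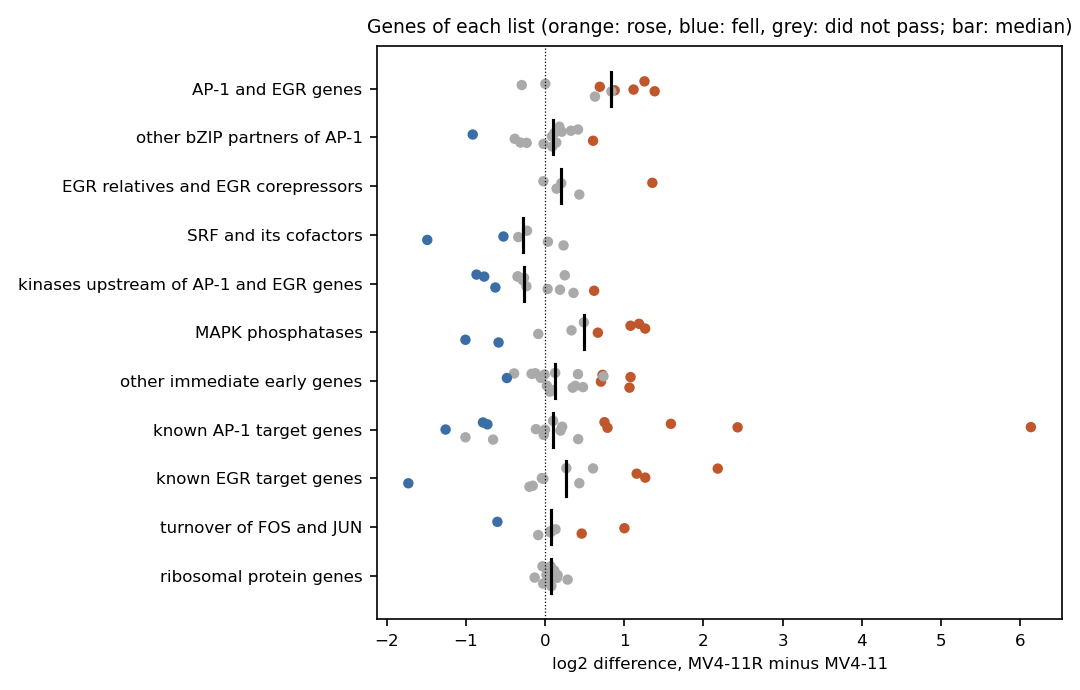
The log2 difference (MV4-11R minus MV4-11) of each measured gene is plotted by list, orange where it rose, blue where it fell and grey where it did not pass, with the list's median as a bar; a gene in more than 1 list appears in each. The median is 0.84 for the AP-1 and EGR genes and between -0.28 and 0.49 for the other lists, and the point farthest right is CCL2 at 6.14.

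Genes known to be AP-1 targets went both ways. Of 17, 5 rose, 3 fell and 9 did not pass, with a median of 0.10. The monocyte chemokine CCL2 (6.14, adjusted p = 2.84e-04 by limma) and the cytokine TNF (2.43, adjusted p = 0.00123) rose most. The secreted phosphoprotein SPP1 (-1.26, adjusted p = 0.0155) and the adhesion receptor CD44 (-0.78, adjusted p = 0.0164) fell. CCL2 read 6.44 and 6.10 in MV4-11, and SPP1 6.58 and 5.95 in MV4-11R, around the background guide, so their sizes are not exact. The rises of CCL2, TNF and CXCL8 were known when the list was written, and without these 3 genes 2 rose and 3 fell of 14, with a median of -0.01. The collagenase MMP1, a textbook AP-1 target, read between 4.66 and 4.87 on the 4 arrays, under the background guide. It was picked with its level known. CD44 missed the threshold with MV4-11 replicate 1 (0.0636) or MV4-11R replicate 1 (0.0537) left out.

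Of the EGR targets 11 were measured, and 3 of these rose, 1 fell and 7 did not pass, for a median of 0.27. The matrix protein THBS1 rose 4.54-fold (2.18, SE 0.23, adjusted p = 0.00386 by limma) and the adhesion molecule ICAM1 2.41-fold (8.62 to 9.88, adjusted p = 0.00617). CSF1R, the macrophage growth factor receptor, fell 3.31-fold (10.38 to 8.65, adjusted p = 0.00939). THBS1 read 5.97 and 5.84 in MV4-11, under the background guide, so its fold is not exact. Many of these genes answer to other factors too, and DNA binding was not analysed here.

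By the distance between centred values over the 4 arrays, the genes closest to FOSB were ANKRD36 (0.08), FKBP14 (0.08) and PRR32 (0.10). Those closest to JUND were NRN1 (0.06), CD55 (0.07) and SPRY1 (0.08), the last a feedback inhibitor of receptor kinase signalling. With 4 arrays in 2 groups, likeness mostly means a difference of the same size.

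The series as a whole set the frame for these values. Array medians lay between 6.75 and 6.78, and each of the 9 genes read above the background guide of 6.26 on every array. EZH2, the gene whose level the labels call low in the resistant line, had a difference of -0.14 (adjusted p = 0.734 by limma), and FLT3, the kinase that PKC412 inhibits, fell by 0.93 on the log2 scale (adjusted p = 0.00526). Myeloid genes were present, with SPI1 from 11.34 to 11.52, CEBPA from 10.69 to 10.84 and LYZ from 11.72 to 12.57, while KIT (4.59 to 5.02) was not above the guide. Of 11 measured myeloid markers 3 fell and 0 rose, the largest falls being of CSF1R and FLT3. At an unadjusted p under 0.05 by limma, 3 were lower and 2 higher. The higher ones were CD14 (0.77, adjusted p = 0.0855) and CEBPE (0.41, adjusted p = 0.0505). CD14 read 6.05 and 6.13 in MV4-11, under the guide. Of 6 B cell markers 1 rose (PAX5, 0.80) and 1 fell (CD79B, -1.09), and 3 read above the guide on all 4 arrays, such as CD79A from 7.54 to 7.79. Of 8 T and NK cell markers 1 rose, NKG7 (0.94), which read from 10.33 to 11.37, and 6 read under the guide on all 4 arrays. Of 6 erythroid and megakaryocytic markers 1 fell (ITGA2B, -0.67) and 4 read above the guide. Of 10 epithelial and fibroblast markers 1 fell (KRT18, -0.58) and 7 read above it, such as KRT8 from 7.76 to 8.23. Over all 18417 genes, 11893 read above the guide on all 4 arrays and 5263 under it on all 4. PAX5 missed the threshold in 3 of the 4 fits with an array left out (adjusted p from 0.0619 to 0.0773), as did ITGA2B (0.0579 to 0.0903) and KRT18 (0.0647 to 0.123). MS4A1, CD3E, HBB and EPCAM, other genes of these lists, read from 4.20 to 5.77, under the guide. Genes of the same lists also read above it, such as PAX5 (6.67 to 7.70), CD79B (6.95 to 8.30), KLF1 (7.31 to 7.87) and GATA1 (6.70 to 6.91). The part of other cells in the results was not tested. The mean level of the B cell list was 6.46 to 6.47 in MV4-11 and 6.37 to 6.55 in MV4-11R, that of the T and NK cell list 5.95 to 6.02 and 6.11 to 6.17, that of the erythroid list 6.71 to 6.72 and 6.65 to 6.73, and that of the epithelial list 6.42 to 6.43 and 6.30 to 6.41. Of 14 ribosomal protein genes, 0 passed limma's test (1 had an unadjusted p under 0.05), and RPS9 had the largest difference, 0.29. RNA quality was not analysed here.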

How the data were processed

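Per the submitters' processing notes, the deposited log2 values were made by the authors with RMA in Affymetrix Expression Console, without versions. The log2 scale was read from the values. RMA summarises probes after background correction and quantile normalization, and can understate changes of dim genes. Of 33297 probe sets, 19460 were paired with 1 gene symbol in the platform annotation, 1754 with several and 12083 with none listed. Only the first kind was used, which gave 18417 genes with the brightest probe set each, named by Entrez ID through RefSeq (GRCh38.p14). Levels of different probe sets are not compared.

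Genes were tested with limma 3.58.1 in R 4.3.3 (lmFit and eBayes), with no filter, no block and 2 residual degrees of freedom, 6.06 with the prior. The script was tested on simulated data. No label ties the replicates to separate cultures, so the p-values reflect only how far these arrays differ, possibly for technical reasons. The members and lists were chosen with earlier results of these data known. Named are all members, EZH2, FLT3, and from each list up to 2 rises and 2 falls of largest size that passed without overlap of the groups, or the gene of largest difference where none passed. Other genes named, including SPI1, CEBPA, LYZ, KIT and the marker genes that did not pass, were chosen after their values were seen. Lists share some genes. The turnover list is given among the other observations, and the alternatives in the closing section.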

Additional observations from a re-analysis of the deposited data

How the results depend on the processing

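The 9 AP-1 and EGR genes were tested under 12 alternatives, which gave 108 values; 97 kept their direction and their side of the threshold. FOSB, JUN and JUND kept both under all 12. When all 33297 probe sets were tested, 1505 passed in place of 2772 genes, members passing went from 5 to 3 and listed genes from 34 to 16, and FOSL1 (0.88, adjusted p = 0.0509) and JUNB (0.69, adjusted p = 0.116) no longer passed by limma. Of the probe sets that stood for the 18417 genes, 555 rose and 609 fell, against 1458 and 1314 in the main fit. That alternative adjusts over more features, and its SE also differs, such as 0.18 in place of 0.17 for JUNB. With the regional shift subtracted JUNB went to 0.39. With an array left out, JUNB ran from 0.51 to 0.87, FOS from 0.26 to 1.004, EGR1 from 0.28 to 1.40, and BATF from -0.13 to 0.14. BATF, which passed under none, was also on the other side of 0 with array centring (-0.0001) and quantile normalization (-0.0194). EZH2 ran from -0.45 without MV4-11R replicate 1 to 0.16 without MV4-11R replicate 2. Members passing then ran from 4 to 7, listed genes from 20 to 32, and all genes from 1588 to 2479. In these fits the lone array is assumed to vary like the other line.

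Replicate numbers are shared by the lines but not described as a shared day, and with 2 pairs they were not taken as pairing. The deviations of the arrays numbered 1 correlated at r = 0.26 across genes. With the replicate block 3642 genes passed, and the members passing stayed at 5, with FOS at adjusted p = 0.130 and EGR1 at 0.103 by limma. Precision is limited by the number of arrays.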

Other observations

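Genes that set the turnover of FOS and JUN were also read. The list holds RNA-binding proteins that speed the decay of short-lived transcripts and enzymes that lead to breakdown of the proteins. Of the 7 genes measured, 2 rose and 1 fell, and 4 did not pass (median difference 0.07). ZFP36L1, an RNA decay factor, read 7.25 and 7.05 in MV4-11 and 8.20 and 8.11 in MV4-11R, and rose 2.004-fold (1.003, SE 0.12, adjusted p = 0.00563 by limma), also without any 1 array. Its relatives ZFP36 (0.06, adjusted p = 0.853) and ZFP36L2 (-0.09, adjusted p = 0.700) did not pass, and both were chosen after their values were seen. COP1, a ubiquitin ligase that acts on JUN, rose 1.38-fold (8.01 to 8.48, adjusted p = 0.0445 by limma), a call lost without any 1 of the 4 arrays (adjusted p from 0.0664 to 0.183) and with a trended prior (0.0521). GSK3B, a kinase that marks JUN for breakdown, fell 1.52-fold (10.63 to 10.03, adjusted p = 0.0258 by limma). On chromosome 3 the median of its neighbours was -0.42, and with that shift subtracted GSK3B went from -0.60 to -0.18 (adjusted p = 0.392). GSK3B also missed the threshold with MV4-11 replicate 1 (0.107), replicate 2 (0.0661) or MV4-11R replicate 1 (0.0946) left out. Protein levels were not analysed here.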
